A study of Sus scrofa with 6 samples.

Results

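Parvalbumin mRNA and the mRNAs of the calcium store of muscle were followed in the longissimus dorsi (a long back muscle) of QingYu pigs. The libraries came from the plateau phase of growth (PP, 395 days of age) and from the growth inflection point (IP, 178 days), with 3 libraries each, which the methods give as biological replicates from female pigs. The growth protocol in the sample labels gives both ages, while the age field of each library reads 178 days, so the ages here are those of the protocol. The labels name no transgene or drug for either phase, and polyadenylated RNA was enriched before sequencing. A set of 10 genes was set by name, PVALB, SRL, CASQ1, CASQ2, ATP2A1, ATP2A2, RYR1, JPH1, JPH2 and TRDN, and it was selected on an earlier reading of the PP against the IP in these same libraries. Of these 10, 7 had a matching Ensembl identifier among the 12671 loci of the table. They were PVALB (ENSSSCG00000000138.4), SRL (ENSSSCG00000007949.3), CASQ1 (ENSSSCG00000006390.3), ATP2A1 (ENSSSCG00000007805.2), ATP2A2 (ENSSSCG00000034386.1), JPH1 (ENSSSCG00000006174.3) and TRDN (ENSSSCG00000027613.2). CASQ2, RYR1 and JPH2 were not matched and were not analysed here. Levels are in TPM, a unit of transcript abundance that is corrected for transcript length. All 7 reached 1 TPM in 3 or more of the 6 libraries, the filter that left 10896 loci for the comparison.

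In a muscle fibre the sarcoplasmic reticulum stores calcium, releases it through the ryanodine receptor when the membrane is excited, and takes it back through the SERCA pumps. Fast fibres hold a large store, the fast pump SERCA1 and the store protein calsequestrin 1, and in many mammals also much parvalbumin, a soluble protein that binds calcium in the cytosol and speeds relaxation. Slow fibres rely on SERCA2, which is also the pump of the heart. The genes measured here stand for the buffers (PVALB in the cytosol, CASQ1 in the store, and SRL, which encodes sarcalumenin of the store), the pumps (ATP2A1 for SERCA1 and ATP2A2 for SERCA2), and the junction between the store and the surface membrane (JPH1 for junctophilin 1 and TRDN for triadin, which binds calsequestrin and the ryanodine receptor).

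On Sscrofa11.1, with RefSeq annotation, PVALB lies on chromosome 5 from 10953559 to 10973300, SRL on chromosome 3 from 38073379 to 38111936 and ATP2A1 on the same chromosome from 18545064 to 18568312. CASQ1 lies on the reverse strand of chromosome 4 from 90276752 to 90288990, JPH1 on chromosome 4 from 61628304 to 61716550, ATP2A2 on chromosome 14 from 31674659 to 31744981 and TRDN on chromosome 1 from 39180544 to 39567245. All but CASQ1 are on the forward strand. The 250 bases before the annotated gene start are shown for PVALB and SRL, whose phases did not overlap, and for ATP2A1 and TRDN, whose phases did. Capitals mark an E-box (CANNTG, the core of sites of the MyoD family, the same on both strands), a MEF2 site, a CArG box (the site of serum response factor) or a TATA box (TATAAA on either strand).

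PVALB, chr5:10953309-10953558, forward strand: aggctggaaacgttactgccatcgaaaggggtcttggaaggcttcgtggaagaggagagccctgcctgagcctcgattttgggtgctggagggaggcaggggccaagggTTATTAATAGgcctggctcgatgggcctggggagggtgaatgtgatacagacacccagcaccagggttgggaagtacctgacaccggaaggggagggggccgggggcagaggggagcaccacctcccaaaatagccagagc
SRL, chr3:38073129-38073378, forward strand: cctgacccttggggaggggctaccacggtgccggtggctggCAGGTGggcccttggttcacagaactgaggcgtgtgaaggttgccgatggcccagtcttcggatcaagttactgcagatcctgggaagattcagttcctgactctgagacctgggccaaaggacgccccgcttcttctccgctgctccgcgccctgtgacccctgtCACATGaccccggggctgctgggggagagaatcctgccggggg
ATP2A1, chr3:18544814-18545063, forward strand: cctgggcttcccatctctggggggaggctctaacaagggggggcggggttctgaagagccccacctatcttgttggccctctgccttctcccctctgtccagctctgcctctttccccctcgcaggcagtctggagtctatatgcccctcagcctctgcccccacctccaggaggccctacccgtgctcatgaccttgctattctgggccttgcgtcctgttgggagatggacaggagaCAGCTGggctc
TRDN, chr1:39180294-39180543, forward strand: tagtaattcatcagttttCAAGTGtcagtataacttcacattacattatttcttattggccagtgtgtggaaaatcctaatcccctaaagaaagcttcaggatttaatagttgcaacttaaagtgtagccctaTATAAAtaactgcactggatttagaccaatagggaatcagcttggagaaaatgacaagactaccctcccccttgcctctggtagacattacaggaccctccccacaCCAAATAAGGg

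The window of PVALB was the only one of the 7 with a match to the MEF2 site, the binding site of the MEF2 factors of muscle, and its first base was at -141, where -1 is the base just before the start. Of 19544 windows of the same length before protein-coding genes, 2.55% held such a match. An E-box was found in 5 of the 7 windows, those of SRL, CASQ1, ATP2A1, JPH1 and TRDN, against 61.9% of all windows. TRDN alone had a TATA box (at -117) and a CArG box (at -11), which 9.76% and 1.31% of all windows held. The windows of the 7 genes also differed in base composition, with a GC content of 81.6% for JPH1, 77.2% for ATP2A2, 60.8% for PVALB and 39.6% for TRDN, against a median of 57.6%. RefSeq lists 4 different starts for PVALB and 8 for SRL, and the outermost was used, so these windows need not be those in use in this muscle.

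The libraries were not of one kind within a phase, which bears on each value given here. Library medians of TPM stood at 2.98, 4.52 and 3.18 at the PP, against 4.69, 6.12 and 3.03 at the IP. The most abundant locus of each library held 35.0, 29.0 and 35.8% of all TPM at the PP, against 25.2, 21.8 and 31.9% at the IP. As TPM are scaled to a fixed total, a larger share of 1 locus leaves less for all others. The first principal component of the 10896 loci held 64.3% of the variance and set PP replicate 2 beside IP replicates 1 and 2, and IP replicate 3 beside PP replicates 1 and 3. The depth behind each TPM is unknown, as the unit keeps no read number, and the spread between libraries is the error. ACTA1, the actin of skeletal muscle, had 3658 to 6270 TPM at the PP, against 4901 to 11431 TPM at the IP, so the skeletal muscle of the label was represented in each library. In bulk RNA, fewer fibres of a type and less mRNA per fibre cannot be told apart.

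PVALB was the gene of the set with the largest difference between the phases. It had 5.80, 11.2 and 6.32 TPM at the PP, against 61.1, 173 and 75.4 TPM at the IP. The highest PP library thus lay far under the lowest IP library, and IP replicate 3, which stood with PP replicates 1 and 3 over all loci, did not do so for PVALB. The means were 7.79 ± 3.002 TPM at the PP, against 103 ± 60.7 TPM at the IP (SD, n = 3 libraries each), and the log2 fold change of TPM + 1, PP minus IP, was -3.47 (standard error 0.43). On the TPM scale the PP mean was 0.0756 of the IP mean. As the genes were picked with this contrast known, the difference is a description and carries no test.

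SRL, the sarcalumenin gene, was the other buffer gene without overlap. It had 31.5, 35.5 and 28.1 TPM at the PP, against 129, 138 and 47.3 TPM at the IP. The PP libraries lay within 1.26-fold of each other, while IP replicate 3 was well under the other IP libraries and close to the PP values. The log2 fold change was -1.55 (standard error 0.41). CASQ1, which encodes the main calcium-binding protein of the store in fast fibres, had 179.9, 471 and 253 TPM at the PP, against 1262, 796 and 373 TPM at the IP. Its phases overlapped, since PP replicate 2 was above IP replicate 3, and the log2 fold change was -1.37 (standard error 0.50).

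The pump genes differed from each other in how their libraries were ordered. ATP2A1, the gene of the fast pump, had 168, 1300.3 and 426 TPM at the PP, against 2806, 2331 and 411 TPM at the IP. It varied 7.73-fold within the PP and 6.83-fold within the IP, and both PP replicates 2 and 3 were above IP replicate 3. Its log2 fold change of -1.61 was thus larger than that of CASQ1 but had a standard error of 0.89. ATP2A2, the gene of SERCA2, had 53.2, 69.7 and 55.1 TPM at the PP, against 104, 242 and 85.2 TPM at the IP. All PP libraries were under all IP libraries and lay within 1.31-fold of each other, and the log2 fold change was -1.12 (standard error 0.39). ATP2A2 was lower than ATP2A1 in each of the 6 libraries.

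ATP2A1 was the most abundant of the 7 genes except in PP replicate 1, where CASQ1 and TRDN were above it. The sum of the 7 was 633, 2184 and 969 TPM at the PP, against 4828, 4103 and 1225 TPM at the IP, with PP replicate 2 above IP replicate 3. ATP2A1 made up 26.6, 59.5 and 43.9% of it at the PP, against 58.1, 56.8 and 33.5% at the IP. The share was lowest in PP replicate 1 and IP replicate 3 and did not separate the phases.

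The junction genes showed the smallest differences of the set. TRDN had 178, 248 and 179 TPM at the PP, against 407, 377 and 214 TPM at the IP. PP replicate 2 was above IP replicate 3, and the log2 fold change was -0.68 (standard error 0.29). JPH1, whose protein ties the store to the surface membrane, had 15.8, 48.2 and 22.3 TPM at the PP, against 58.2, 45.8 and 19.6 TPM at the IP. Here PP replicate 2 exceeded IP replicates 2 and 3, and the log2 fold change of -0.52 was about as large as its standard error of 0.51.

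**Figure D1:**
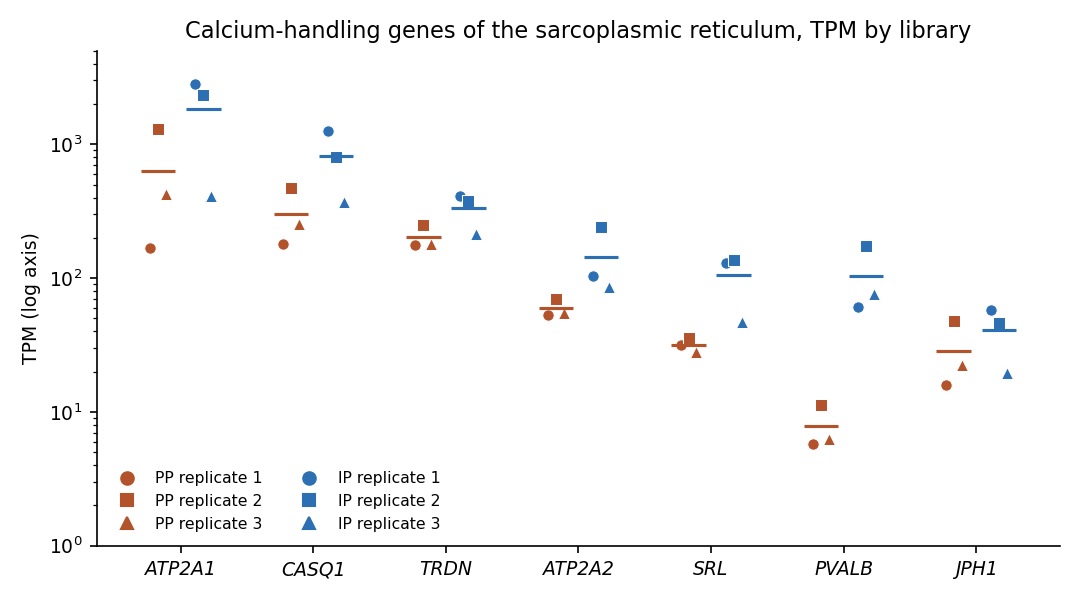
TPM on a log axis for the 7 genes, with PP libraries (brown) left of IP libraries (blue), 1 point per library, a marker per replicate number and a bar at the mean of 3. PVALB lies at 5.80 to 11.2 TPM at the PP and at 61.1 to 173 TPM at the IP, while the points of ATP2A1 spread over 168 to 2806 TPM with overlap of the phases.

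All 7 log2 fold changes were below 0, against 8997 of all 10896 tested loci, and below the median of all tested loci, -0.25. Their median was -1.37, and each stayed below 0 in all 16 other settings tried. Among these settings, the other filters, the variance model and the replicate block cannot change a fold change. With median-ratio scaling, which moves the median of all loci to 0.01, the median of the 7 was -1.05. With limma and a Benjamini-Hochberg adjusted threshold of 0.05, 1 of the 7 was called lower at the PP, PVALB, against 0.101% of all tested loci. With the unadjusted thresholds, p below 0.05 and a log2 fold change beyond 1 in size, 4 of the 7 were called lower, PVALB, SRL, CASQ1 and ATP2A2, against 2.24% of all tested loci. The PP libraries were all under the IP libraries for 3 of the 7, against 10.8% of all tested loci. Nothing is read from these counts, because the genes were picked with the contrast in view. The adjusted call of PVALB was lost with a pseudocount of 5 and with a minimum of 5 TPM in 3 libraries. It was also lost when any one of PP replicates 1, 2 and 3 or IP replicates 1 and 2 was left out, while PVALB and SRL both passed without IP replicate 3. At the unadjusted thresholds ATP2A2 dropped out with median-ratio scaling (log2 fold change -0.79), with quantile normalization (-0.86) and without the 3 most abundant assembled loci (-0.94). CASQ1 dropped out without IP replicate 1 or PP replicate 1, both dropped out without IP replicate 2 or PP replicate 3, and ATP2A1 was added without IP replicate 3 or PP replicate 2.

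The order of the levels, which TPM allow because they are corrected for length, was not the same in the phases. At the PP the mean levels ran from ATP2A1 (631 ± 593 TPM, SD, n = 3) over CASQ1 (301 ± 152), TRDN (202 ± 40.1), ATP2A2 (59.3 ± 9.04), SRL (31.7 ± 3.72) and JPH1 (28.7 ± 17.1) to PVALB (7.79 ± 3.002). The libraries of ATP2A1, CASQ1 and TRDN overlapped, as did those of SRL and JPH1, and the other neighbours in this order did not. At the IP they ran from ATP2A1 (1849 ± 1268 TPM, SD, n = 3) over CASQ1 (810.5 ± 445), TRDN (333 ± 104), ATP2A2 (144 ± 85.8), SRL (105 ± 49.8) and PVALB (103 ± 60.7) to JPH1 (41.2 ± 19.7). At the IP each gene overlapped with the next in this order except PVALB and JPH1. The parvalbumin mRNA was thus the least abundant of the 7 at the PP, under JPH1 in 3 of 3 libraries, and it was above JPH1 in 3 of 3 libraries at the IP and above SRL in 2 of 3.

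**Figure D2:**
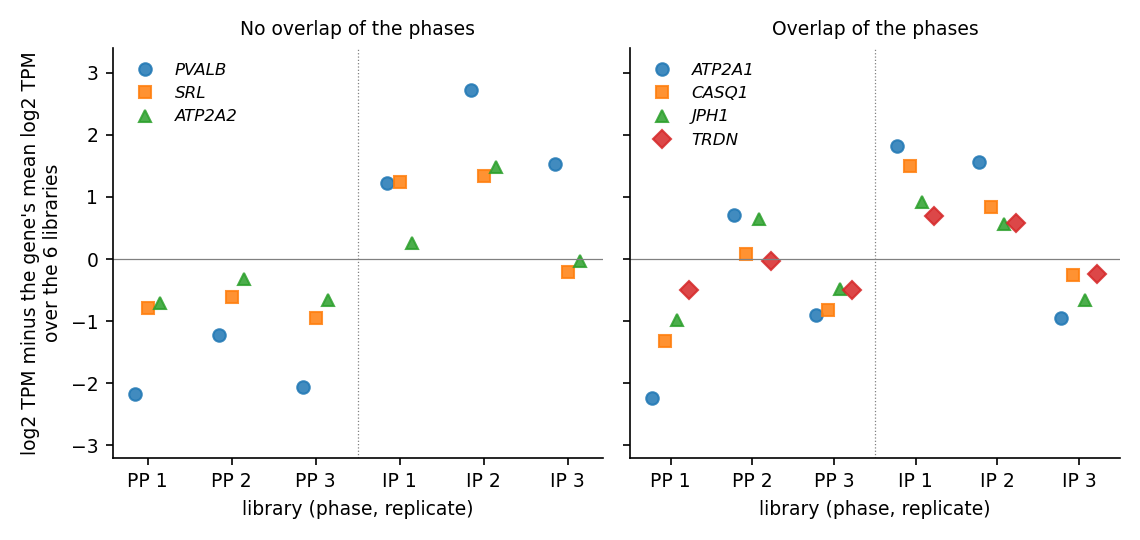
For each library, log2 TPM of a gene minus its mean over the 6 libraries, with the PP libraries left of the dotted line and the IP libraries right of it. In the left panel (PVALB, SRL, ATP2A2) every PP point lies under every IP point of the same gene, and in the right panel (ATP2A1, CASQ1, JPH1, TRDN) PP replicate 2 lies above IP replicate 3.

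Across the libraries the genes followed different orders. ATP2A1, from high to low, ran replicates 1 and 2 of the IP, replicates 2 and 3 of the PP, replicate 3 of the IP and replicate 1 of the PP, and the library medians ran in the same order except that the first 2 were exchanged. JPH1 had its 3 highest values in the same 3 libraries, as had CASQ1 and TRDN. For PVALB the order was replicates 2, 3 and 1 of the IP and then the PP libraries. As a description over 6 libraries that share these differences, the Pearson correlation of log2(TPM + 1) was 0.97 for ATP2A1 with JPH1, 0.97 for CASQ1 with TRDN and 0.96 for ATP2A1 with CASQ1. PVALB was closest to ATP2A2 (0.90) and SRL (0.87) and least close to JPH1 (0.47). Whether the library medians play a part in the values of ATP2A1, CASQ1, JPH1 and TRDN was not tested.

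Over 4553 genes with a symbol and a mean of 5 TPM or more, those most like PVALB by Pearson correlation of log2(TPM + 1) over the 6 libraries were SGCA (0.999), FDPS (0.998), TMEM38A (0.993), EMC9 (0.992) and HRC (0.992). TMEM38A encodes a cation channel of the sarcoplasmic reticulum and HRC a histidine-rich calcium-binding protein inside it. SGCA, which encodes a sarcoglycan of the surface membrane of the fibre, had 14.7, 18.0 and 14.0 TPM at the PP, against 37.5, 58.9 and 40.2 TPM at the IP. FDPS, an enzyme of isoprenoid synthesis, had 3.68, 4.88 and 3.79 TPM at the PP, against 8.67, 12.6 and 8.68 TPM at the IP. For ATP2A1 they were FAM114A2 (0.998), HNRNPA2B1 (0.997), CACNB1 (0.996), ANK3 (0.996) and BABAM1 (0.995). CACNB1, with 8.85, 26.1 and 14.0 TPM at the PP, against 45.3, 40.5 and 15.4 TPM at the IP, encodes the beta subunit of the calcium channel that senses voltage at the triad. These lists depend on the scaling, since with median-ratio scaling 0 of the 5 genes were shared for PVALB and 0 of the 5 for ATP2A1.

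Ratios within a library do not depend on the total to which TPM are scaled. The ratios to contractile genes and of SLN to ATP2A1 were chosen after the values were seen, and no ratio was tested. Per 1000 TPM summed over 5 fast contractile genes (MYL1, TNNC2, TNNI2, TNNT3 and ACTN3), PVALB had 0.187, 0.225 and 0.167 TPM at the PP, against 1.23, 5.13 and 2.02 TPM at the IP. The PP values lay close together and under every IP value, so the difference of PVALB was also present relative to the fast contractile mRNAs. SRL had 1.01, 0.710 and 0.743 TPM per 1000 at the PP, against 2.59, 4.09 and 1.27 TPM per 1000 at the IP, again without overlap. ATP2A1 had 5.41, 26.0 and 11.3 TPM per 1000 at the PP, against 56.5, 69.3 and 10.98 TPM per 1000 at the IP, which overlap.

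ATP2A2 relative to ATP2A1 did not separate the phases. Per 1000 TPM of ATP2A1, ATP2A2 had 316, 53.6 and 129 TPM at the PP, against 37.1, 104 and 208 TPM at the IP. The mean log2 ratio was -2.94 ± 1.28 at the PP and -3.43 ± 1.25 at the IP (SD, n = 3), a difference of 0.49 that is smaller than either SD. Per 1000 TPM summed over 5 slow contractile genes (MYL2, MYL3, TNNC1, TNNI1 and TNNT1), ATP2A2 had 4.35, 16.1 and 5.52 TPM at the PP, against 23.1, 26.1 and 11.07 TPM at the IP, where PP replicate 2 overlapped with IP replicate 3. Within the PP, ATP2A2 was highest in replicate 2, where each of these 5 genes was lowest. Within the IP, ATP2A2 and each of the 5 were highest in replicate 2. The median log2 fold change of the 5 was 0.02, against -1.12 for ATP2A2. Whether the ATP2A2 values come from slow fibres was not tested. The mean log2 ratio of PVALB to ATP2A1 was -5.93 ± 1.01 at the PP and -3.91 ± 1.54 at the IP, with overlap between PP replicate 1 and IP replicate 1. SRL and CASQ1 relative to ATP2A1 differed by 0.04 and 0.24 on the log2 scale, against SDs of 0.69 to 1.39.

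Markers of fibre types and of other cells in the muscle were read beside these values. The 5 fast contractile genes summed to 31071 to 50027 TPM at the PP, against 33621 to 49672 TPM at the IP, and the 5 slow contractile genes to 4335 to 12234 TPM at the PP, against 4501 to 9269 TPM at the IP. Both sums overlapped between the phases, and MYH1, MYH2, MYH4, MYLPF and MYH7, further fibre-type markers, were not matched. MYL2, a light chain that slow fibres use, had 5758, 2132 and 4840 TPM at the PP, against 1552, 3490 and 3006 TPM at the IP, so PP replicate 2 and IP replicate 1 had the lowest values. MYH6, a myosin heavy chain of heart that some skeletal muscles also express, had 228 to 596 TPM at the PP, against 306 to 701 TPM at the IP. The 4 smooth muscle markers summed to 86.2 to 103 TPM at the PP, against 110.1 to 199.6 TPM at the IP, and the 3 markers of endothelium to 20.4 to 24.8 TPM at the PP, against 22.0 to 48.8 TPM at the IP. The smooth muscle sums thus lay lower at the PP without overlap, and the endothelial sums overlapped. The 4 markers of fibroblasts summed to 174 to 271 TPM at the PP, against 198 to 331 TPM at the IP, and the 5 of adipocytes to 261 to 541 TPM at the PP, against 272 to 370.1 TPM at the IP. The 4 markers of macrophages summed to 16.1 to 25.3 TPM at the PP, against 14.1 to 27.5 TPM at the IP. None of the markers found was at 0 in all libraries. Each sum weighs its abundant genes most, and single markers, named after their values were seen, did not all follow their sum. TAGLN, the most abundant smooth muscle marker, had 49.2 to 69.5 TPM at the PP, against 52.5 to 100.1 TPM at the IP. Its phases overlapped. DCN, most of the fibroblast sum, had 211, 146 and 172 TPM at the PP, against 112, 173 and 151 TPM at the IP. The fibrillar collagen gene COL1A1 had 5.65, 5.46 and 6.598 TPM at the PP, against 18.1, 31.5 and 10.3 TPM at the IP. COL3A1, another collagen gene, had 49.3, 16.5 and 34.2 TPM at the PP, against 63.4, 116 and 68.1 TPM at the IP. Both collagen genes were thus lower in every PP library, as were CIDEC of the adipocyte list and ACTA2 and CNN1 of the smooth muscle list, while the phases overlapped for DCN. CIDEC, a protein of lipid droplets, had 5.56, 2.99 and 3.90 TPM at the PP, against 14.5, 12.1 and 11.7 TPM at the IP. FABP4, the most abundant adipocyte marker, had 483, 201 and 335 TPM at the PP, against 177, 264 and 307 TPM at the IP. Its phases overlapped, and its mean was higher at the PP. Without overlap and lower at the PP were thus 2 of 4 fibroblast, 1 of 5 adipocyte and 2 of 4 smooth muscle markers, against 10.8% of all tested loci. This held for none of 3 endothelial, 4 macrophage, 6 skeletal muscle, 5 fast contractile and 5 slow contractile markers. The median log2 fold change was -0.85 for the fibroblast markers, -0.63 for smooth muscle, -0.27 for adipocytes, -0.43 for endothelium and 0.02 for macrophages, against -0.25 over all loci. For markers of the fibres it was -0.43 for skeletal muscle, -0.17 for the fast contractile genes and 0.02 for the slow contractile genes. The part of cell types other than fibres in the values of the 7 genes was not tested.

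The rest of the calcium-handling pathway was read from a list of 59 other genes, of which 52 were found in the table and 47 tested. No gene of this list passed an adjusted p of 0.05 in limma, against 0.147% of all tested loci, and 7 had an unadjusted p under 0.05, 6 lower and 1 higher at the PP (14.9% of the list, against 6.93% of all tested loci). At the unadjusted thresholds with a fold change beyond 1 in size on the log2 scale, 4 passed, against 2.57% of all tested loci, and all 4 were lower at the PP. The libraries did not overlap for 9 genes that were lower and 1 that was higher at the PP, against 10.8% and 2.02% of all tested loci. The median log2 fold change of the 47 genes was -0.35, against -0.25 over all loci, and 28 of the 47 lay below that median. The number of 4 was 1 with median-ratio scaling or quantile normalization, 12 without IP replicate 3, 8 without PP replicate 2 and 2 without IP replicate 2 or PP replicate 3. Over all tested loci 280 passed these thresholds, 87.1% of them lower at the PP, and 55.7% of 203 were lower with median-ratio scaling.

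Among the 16 tested genes of calcium release and the triad, 15 had a log2 fold change below 0, against 8997 of all 10896 tested loci. Of the 16, 12 lay below the median of all loci, and none passed the adjusted threshold. HRC had 32.6, 42.6 and 30.5 TPM at the PP, against 94.1, 122.7 and 85.6 TPM at the IP (log2 fold change -1.49, standard error 0.24, adjusted p = 0.119 from limma). TMEM38A had 60.2, 62.4 and 55.0 TPM at the PP, against 109.7, 146 and 115 TPM at the IP (log2 fold change -1.04, adjusted p = 0.223 from limma). In both genes IP replicate 3 stayed well above the PP libraries, as in PVALB. Both were named for the smallest p values of the list, and both were already among the genes most like PVALB. The likeness is therefore not a separate observation. CACNA2D1, an auxiliary subunit of voltage-gated calcium channels, had 26.3, 37.3 and 26.6 TPM at the PP, against 78.4, 99.1 and 48.8 TPM at the IP (log2 fold change -1.26, adjusted p = 0.340 from limma). CACNA1S, the pore of the voltage sensor at the triad, had 17.2, 60.5 and 28.5 TPM at the PP, against 122, 99.0 and 24.4 TPM at the IP, and it overlapped in the manner of ATP2A1 (log2 fold change -1.08, adjusted p = 0.798 from limma).

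S100A1, a calcium-binding protein that acts on the ryanodine receptor and on SERCA, was the gene of the list with the smallest p among those higher at the PP. It had 218, 210.3 and 221 TPM at the PP, against 117, 173 and 161 TPM at the IP, without overlap (log2 fold change 0.54, standard error 0.22, adjusted p = 0.686 from limma). Sarcolipin (SLN), a small peptide that inhibits SERCA, was the most abundant gene of the list, with 6092, 10708 and 7159 TPM at the PP, against 9386, 4241 and 3969 TPM at the IP. IP replicate 1 lay among the PP libraries (log2 fold change 0.52, standard error 0.37, adjusted p = 0.805 from limma). Per TPM of ATP2A1, SLN had 36.2, 8.24 and 16.8 TPM at the PP, against 3.34, 1.82 and 9.67 TPM at the IP, where only PP replicate 2 and IP replicate 3 were out of order. PLN, MRLN and STRIT1, which encode other peptides that act on the pump, were not matched and were not analysed here.

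**Figure D3:**
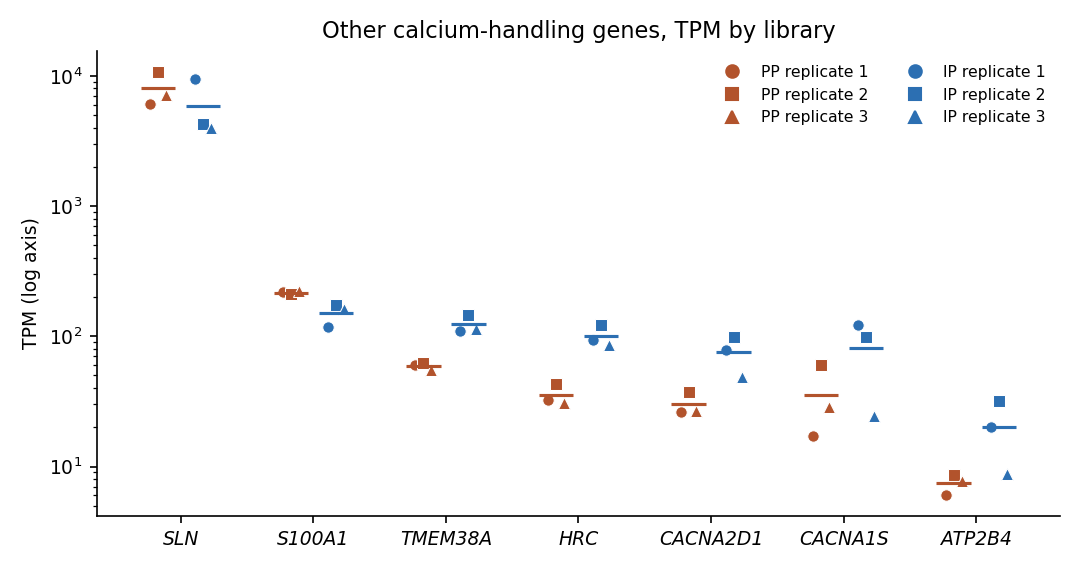
TPM on a log axis for 7 other calcium-handling genes, with PP libraries (brown) left of IP libraries (blue), 1 point per library and a bar at the mean of 3. HRC, TMEM38A, CACNA2D1 and ATP2B4 do not overlap between the phases and are lower at the PP, S100A1 does not overlap and is higher at the PP, and SLN and CACNA1S overlap.

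Outside the triad, all 5 tested general calcium binders of the reticulum had a log2 fold change below the median of all loci. CALR (calreticulin) and RCN1 (reticulocalbin), named after their values were seen, had an unadjusted p under 0.05 (log2 fold changes -0.58 and -0.85, adjusted p = 0.680 and 0.690 from limma). ATP2B4, a calcium pump of the surface membrane, had 6.09, 8.63 and 7.70 TPM at the PP, against 20.0, 32.0 and 8.69 TPM at the IP (log2 fold change -1.17, adjusted p = 0.651 from limma). Its highest PP library and lowest IP library nearly touched. Of 5 tested genes of store-operated entry, 3 receptors for inositol trisphosphate, 7 genes of mitochondrial calcium and 4 calmodulin kinases, none had an unadjusted p under 0.05. MCUB, a subunit that dampens the mitochondrial uniporter, and ITPR3, a receptor for inositol trisphosphate, had log2 fold changes of 0.10 (standard error 0.22) and 0.12 (standard error 0.30), with changes of sign when single libraries were left out.

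**Figure D4:**
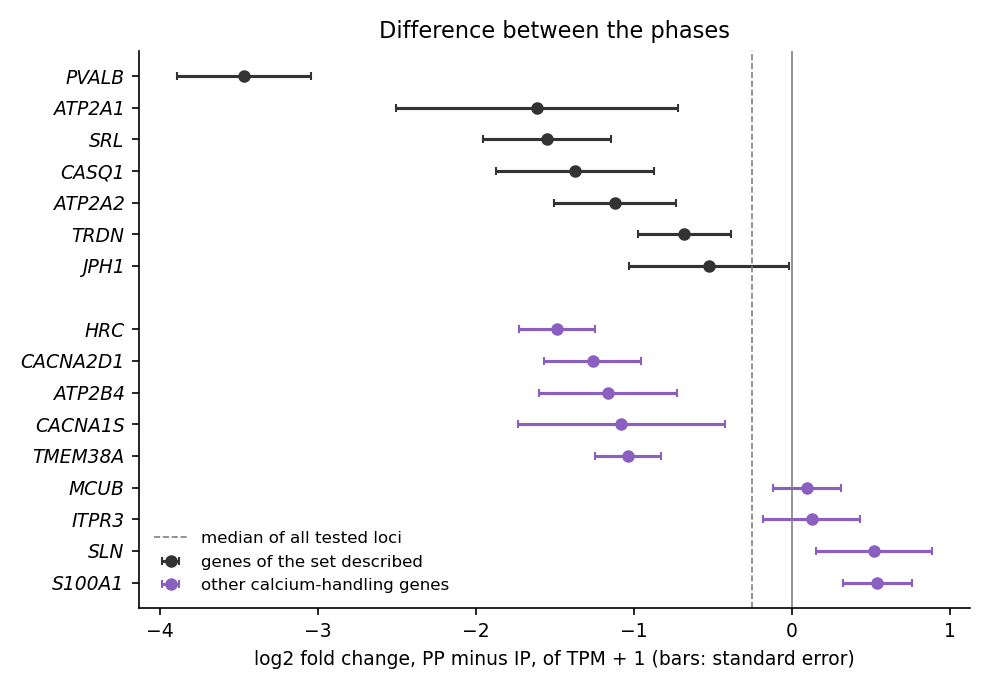
Log2 fold change of TPM + 1, PP minus IP, with its standard error from limma, for the 7 genes described (black) and 9 other calcium-handling genes (purple), beside the median of all tested loci (dashed line, -0.25). PVALB stands at -3.47, HRC at -1.49 and TMEM38A at -1.04, while ATP2A1 has the widest bar, 0.89.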

How the data were processed

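Poly(A)-selected RNA of longissimus dorsi from 3 PP and 3 IP libraries was sequenced. The authors removed reads of low quality, aligned with TopHat, assembled with Cufflinks and deposited 1 TPM column per library. The methods name an earlier pig build, while the submitters' processing notes give Sscrofa11.1. Depth per locus is unknown. How reads shared by paralogs were counted is not given in the sources used here.

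Identifiers were paired with symbols through an Ensembl table (9764 of 12671 loci). Log2(TPM + 1) of 10896 loci was fitted with limma 3.58.1 in R 4.3.3 (eBayes with a trend, 2-sided, no block, Benjamini-Hochberg adjustment). Noiseq and Cuffdiff, the tools that the study names, were not run. Likeness, ratios and motif counts used Python 3.11.15 and pysam 0.24.0, with windows read from the RefSeq genome. The steps were tested on simulated data.

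The genes and lists were chosen with earlier results of these data known. Named were the 7 genes, CACNA1S, pump peptides, the 4 list genes with the smallest p in each direction, the 5 genes most like PVALB or ATP2A1, and markers. Alternatives were pseudocounts, filters, scalings, loci left out, variance models, a replicate block and each library left out.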

Additional observations from a re-analysis of the deposited data

How the results depend on the processing

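The log2 fold changes of the 7 genes kept their sign in all 16 alternatives. The alternative filters, the variance model and the replicate block leave these fold changes as they are. The fold changes moved by less than 1 pooled SD between libraries, a bound that leaving out 1 of 3 libraries cannot exceed. They ran from -3.76 to -2.96 for PVALB, -2.04 to -1.23 for SRL, -1.85 to -0.97 for CASQ1, -2.49 to -0.90 for ATP2A1, -1.42 to -0.67 for ATP2A2, -0.97 to -0.36 for TRDN and -0.98 to -0.19 for JPH1, and from -1.85 to -1.05 for their median. At the adjusted threshold PVALB, the only one of the 7 called, was lost with a pseudocount of 5, with a minimum of 5 TPM and with any library other than IP replicate 3 left out. ATP2A2 was lost at the unadjusted thresholds with median-ratio scaling, quantile normalization and the 3 most abundant assembled loci left out. Loci called at the adjusted threshold numbered 16, against 4 with a pseudocount of 5, 6 with a minimum of 5 TPM and 2 to 22 with 1 library left out. At the unadjusted thresholds the 280 loci became 429 with a pseudocount of 0.1, 108 with a pseudocount of 5, 177 with a minimum of 5 TPM and 182 to 934 with 1 library left out. Of the calcium-handling list, 2 passed with a pseudocount of 5, 1 with median-ratio scaling, 1 with quantile normalization and 2 to 12 with 1 library left out. With 1 library left out the value of MCUB lay between -0.020 and 0.20 and that of ITPR3 between -0.13 and 0.30, with -0.095 for ITPR3 without IP replicate 3. ITPR3, MCUB and RCN1 gave no value under the filter of 5 TPM, and ITPR3 none with median-ratio scaling, which took it under the filter. The within-library ratios moved by less than 1 pooled SD with a pseudocount of 1. The same held with a library left out, where a larger move was not possible. The difference in the ratio of ATP2A2 to ATP2A1 ran from -0.18 to 1.12. For the genes most like PVALB and ATP2A1, 4 of the 5 were shared with a pseudocount of 0.1 for each, and this alternative and that of median-ratio scaling were chosen after seeing the data.

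With the replicate number as a block, 3 loci passed the adjusted threshold. Deviations of same-numbered libraries correlated at -0.53, 0.20 and 0.22, and those of PP replicate 1 with IP replicate 3 at 0.64. These values hold the differences between libraries over all loci, so they cannot decide whether the numbers pair the samples. TPM keep no read count per locus, so differences such as those of JPH1 or TRDN were set only against the spread between libraries.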
